A study of Mus musculus with 12 samples.

Results

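The G1 cyclins, their kinases and their inhibitors were followed in mouse resting B (RB) cells after 4 h of stimulation. The set held 10 genes: the D-type cyclins Ccnd1, Ccnd2 and Ccnd3, the kinases Cdk4 and Cdk6, the E-type cyclins Ccne1 and Ccne2, and the inhibitors Cdkn1a, Cdkn1b and Cdkn2c. They were taken by gene symbol from the 50090 gene or transcript names on the array, and 17 of its 61307 probes were theirs. All 10 genes and 16 of the 17 probes passed the filter on dim probes.

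RB cells came from the spleens of female BALB/c mice aged 6 weeks, and the study's methods describe negative selection with an antibody to CD43, a protein of activated B cells, T cells and myeloid cells. There were 6 groups of 2 arrays each. One group was left unstimulated, and the others received Pam2CSK4, anti-CD86, both of these (anti-CD86+Pam2CSK4), anti-CD40, or anti-CD40+Pam2CSK4. Pam2CSK4 is a synthetic lipopeptide that activates TLR-2, anti-CD86 engages a costimulatory molecule on the B cell itself, and anti-CD40 engages the receptor through which helper T cells signal to B cells. The comparisons ask what each signal, alone or combined, did to the transcripts that control entry into the cell cycle. The study's methods name an isotype-matched control antibody, but no array was labelled as having one. Differences of the antibody groups from unstimulated cells can thus include effects of adding an antibody as such. The labels do not say whether the 2 samples of a group came from separate animals or cultures, so p-values measure the spread between these samples, which may be technical. The response of a whole RNA sample cannot tell fewer cells of a type from less RNA per cell.

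A resting B cell sits outside the cell cycle. Mitogenic signals raise D-type cyclins, which activate Cdk4 and Cdk6, and these phosphorylate the retinoblastoma protein and release E2F factors. E2F factors then drive the E-type cyclins, partners of Cdk2, and the genes of DNA replication. Cdkn1a (p21) and Cdkn1b (p27) bind cyclin-kinase complexes, and Cdkn2c (p18) binds Cdk4 and Cdk6 directly. Cyclin D2 is the D-type cyclin best known for its induction when B cells are activated, whereas cyclin D3 is known for its roles in pre-B cells and in germinal centres.

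Levels are log2 processed intensities minus the 75th percentile of the array, so that 0 is the intensity of the 75th percentile probe, and a gene is given by its brightest probe. The brightest probe of each of the 10 genes was well above background and unsaturated on all 12 arrays. Differences are log2 fold changes from limma over all 12 arrays, with p-values adjusted by the Benjamini-Hochberg method over 31599 probes and called under 0.05. Between 46.6% and 60.6% of probes were well above background on an array. The arrays lay on 2 slides: slide 1 held both unstimulated arrays, both anti-CD40+Pam2CSK4 arrays and replicate 1 of the other groups, and slide 2 held the other replicates 2. The arrays of slide 1 had median probe intensities of 17.3 to 23.6, against 30.9 to 51.2 for those of slide 2. The median absolute difference between the 2 arrays of a group was 0.0718 and 0.0851 for the groups within slide 1, and 0.197 to 0.305 for the groups that spanned both slides. Values from a fit that held the slide as a block, called slide-blocked, and from slide 1 alone are therefore given beside the results. On slide 1 alone every group but unstimulated and anti-CD40+Pam2CSK4 had 1 array. Its p-values and calls for such a group assume that the lone array varied like those pairs, which had the smallest differences. The B cell markers Cd79a, Cd79b, Ms4a1, Pax5 and Cd22 were well above background on all 12 arrays, and so were the 7 myeloid markers; Cd79b and the myeloid S100a9 were saturated on all 12. Of the T cell and NK cell markers, Cd4 was well above background on 10 arrays, Ncr1 on 9 and the rest on all 12.

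Probes that the account turns on are shown so that the measured stretch of each transcript can be seen. These are 60-base probes read from the scanner files, written in lower case, 5′ to 3′, and each had at least 1 reading frame free of stop codons, as did 11 of the 17 probes. All 17 probes carried an accession that RefSeq assigns to the same symbol. The first pair belongs to Ccnd2 and gives the brightest and the dimmest of its probes. The third is the second brightest probe of Cdkn1b, which differs from the brightest one in a result for anti-CD40+Pam2CSK4. The last is the brightest probe of Ccne2, which stood out on a single array.
Ccnd2, brightest: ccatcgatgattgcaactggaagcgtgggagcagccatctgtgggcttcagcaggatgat
Ccnd2, dimmest: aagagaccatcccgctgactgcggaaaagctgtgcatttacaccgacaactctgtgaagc
Cdkn1b, second: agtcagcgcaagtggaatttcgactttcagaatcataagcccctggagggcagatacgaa
Ccne2, brightest: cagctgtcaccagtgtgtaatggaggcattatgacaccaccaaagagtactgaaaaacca

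Ccnd2 rose after anti-CD40, with and without Pam2CSK4, and had the largest F of the 10 genes over the 6 groups. Its level was 2.84 and 2.86 on the unstimulated arrays. It was 5.05 and 4.52 after anti-CD40, and 4.97 and 5.0 after anti-CD40+Pam2CSK4. All 4 arrays with anti-CD40 lay above all 8 arrays without it. Ccnd2 was 3.54 and 3.17 after Pam2CSK4, 2.96 and 2.61 after anti-CD86, and 3.70 and 3.21 after anti-CD86+Pam2CSK4. The arrays with Pam2CSK4 thus lay between the unstimulated and the anti-CD40 arrays, and the anti-CD86 arrays lay on either side of the unstimulated ones.

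**Figure D1:**
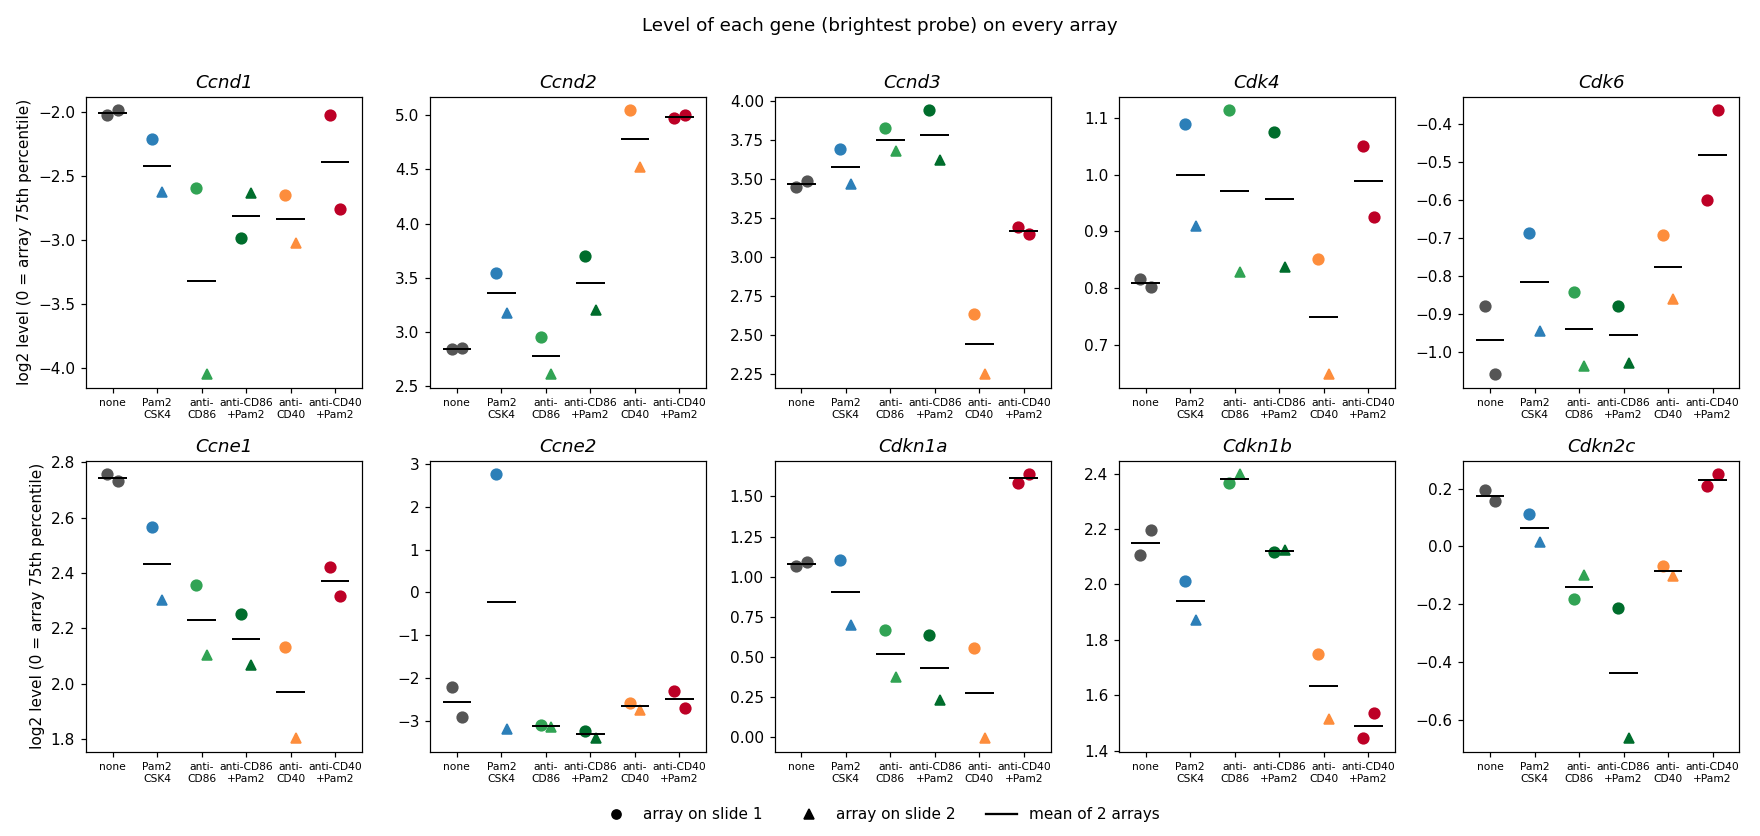
Log2 level of the brightest probe of each gene (0 is the 75th percentile of the array) on the 12 arrays, by stimulation; circles are arrays on slide 1, triangles arrays on slide 2, and bars the mean of 2 arrays. Vertical scales differ between panels. The 4 anti-CD40 arrays of Ccnd2 lie at 4.52 to 5.05, above the other 8, and a single Pam2CSK4 array of Ccne2 stands at 2.76.

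Against unstimulated cells, Ccnd2 was 3.82-fold higher after anti-CD40 (95% interval 2.62 to 5.59), a log2 fold change of 1.93 (SE 0.24, n = 2 and 2, limma adjusted p = 0.00333). After anti-CD40+Pam2CSK4 it was 4.40-fold higher (3.01 to 6.43), or 2.14 on the log2 scale (SE 0.24, adjusted p = 0.00117). The slide-blocked log2 fold changes were 2.15 (adjusted p = 3.65e-05) and 2.14 (adjusted p = 5.68e-06), and on slide 1 alone they were 2.20 and 2.14. Leaving out any 1 array kept both calls for Ccnd2, with adjusted p at most 0.0368 and 0.0148. Scaling to the array median in place of the 75th percentile gave Ccnd2 a log2 fold change of 1.37 after anti-CD40 (adjusted p = 0.128), and a fit to the 4 arrays of the 2 groups alone gave an adjusted p of 0.0949, so that call was lost under both. For anti-CD40+Pam2CSK4 the call held under median scaling (2.03, adjusted p = 0.0153).

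Pam2CSK4 alone gave Ccnd2 a log2 fold change of 0.51 (SE 0.24, limma adjusted p = 0.341), which missed the threshold. The slide-blocked value was 0.73 (adjusted p = 0.00475), and on slide 1 alone 0.69 (adjusted p = 0.124). After anti-CD86+Pam2CSK4 the difference of the brightest Ccnd2 probe was 0.61 (SE 0.24, adjusted p = 0.131), and the slide-blocked one 0.82 (adjusted p = 0.000817). The other 2 Ccnd2 probes passed in that comparison without the block, at 0.72 (adjusted p = 0.0404) and 0.73 (adjusted p = 0.0458). Against anti-CD86 alone the brightest probe of Ccnd2 was higher by 0.67 after anti-CD86+Pam2CSK4 (adjusted p = 0.465; slide-blocked adjusted p = 0.0049). After anti-CD86 alone the 3 Ccnd2 probes did not pass the test with or without the block, and the brightest one had an interval of 0.655- to 1.40-fold.

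The 3 Ccnd2 probes gave close values for anti-CD40 and different ones for the combination. After anti-CD40 alone, the log2 fold changes of the other 2 probes were 1.95 (adjusted p = 0.00123) and 2.02 (adjusted p = 0.00127). After anti-CD40+Pam2CSK4 they were 1.58 (adjusted p = 0.00113) and 2.05 (adjusted p = 0.000496). Adding Pam2CSK4 to anti-CD40 gave one of these Ccnd2 probes a difference of -0.36 (adjusted p = 0.294), or slide-blocked -0.51 (adjusted p = 0.00368), and the dimmest one of 0.02 (adjusted p = 0.953), slide-blocked -0.13 (adjusted p = 0.238). Which transcript forms the 3 probes detect was not tested.

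**Figure D2:**
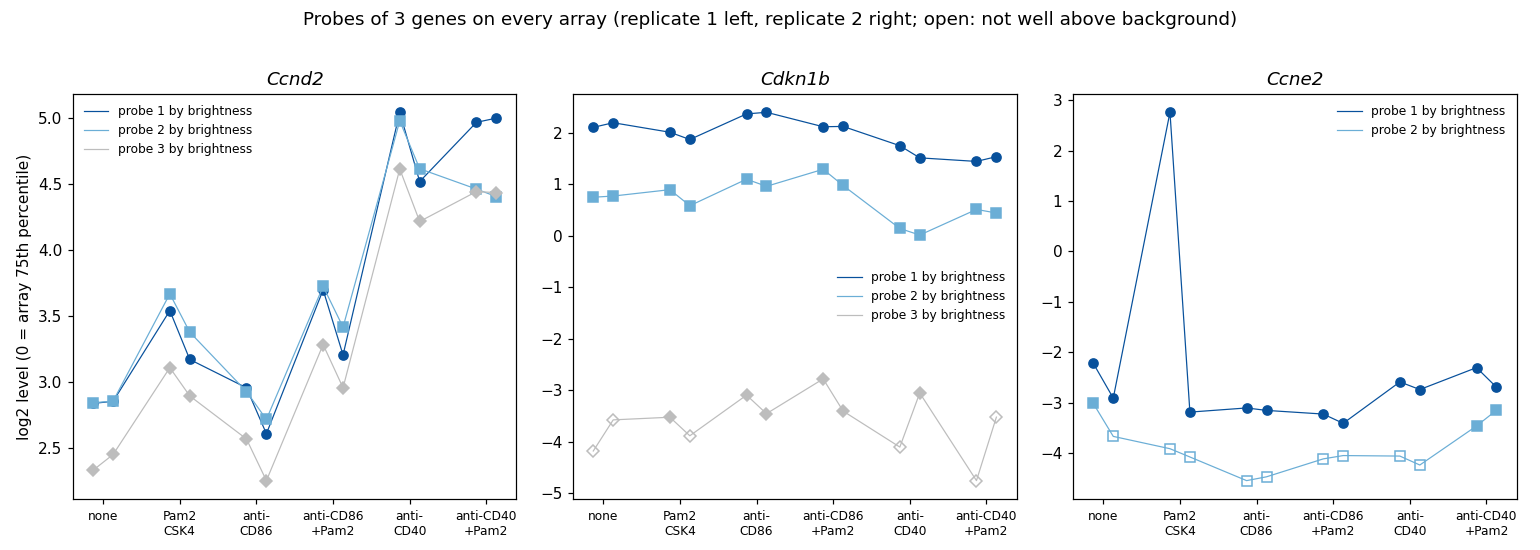
Log2 level of each tested probe of Ccnd2, Cdkn1b and Ccne2 on the 12 arrays (horizontal axis: stimulation, replicate 1 left and replicate 2 right; lines only join the points of a probe; open symbols: not well above background). The 3 Ccnd2 probes move together up to anti-CD40 and part at anti-CD40+Pam2CSK4, and the high Ccne2 point of Pam2CSK4 replicate 1 appears in 1 probe only.

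Ccnd3 fell after anti-CD40, the opposite direction to Ccnd2. Its level was 3.45 and 3.49 on the unstimulated arrays, 2.63 and 2.25 after anti-CD40, and 3.19 and 3.15 after anti-CD40+Pam2CSK4. It was 3.69 and 3.47 after Pam2CSK4, 3.83 and 3.68 after anti-CD86, and 3.94 and 3.62 after anti-CD86+Pam2CSK4. The 4 arrays with anti-CD40 were the 4 lowest. After anti-CD40 the Ccnd3 level was 0.490-fold that of unstimulated cells (95% interval 0.374 to 0.642), a log2 fold change of -1.03 (SE 0.17, limma adjusted p = 0.0091). It was -0.89 when slide-blocked (adjusted p = 0.000406) and -0.84 on slide 1 alone (adjusted p = 0.0219). The Ccnd3 call was lost without unstimulated replicate 1 (adjusted p = 0.0684) or replicate 2 (adjusted p = 0.0757), under median scaling (-1.59, adjusted p = 0.0863), and in a fit to the 4 arrays alone (adjusted p = 0.128). After anti-CD40+Pam2CSK4 the Ccnd3 difference was smaller, -0.30 (SE 0.17, adjusted p = 0.261; slide-blocked adjusted p = 0.0124). After anti-CD86 it was 0.29 (adjusted p = 0.356) and after anti-CD86+Pam2CSK4 0.32 (adjusted p = 0.245), and slide-blocked these became 0.42 (adjusted p = 0.00826) and 0.45 (adjusted p = 0.00493).

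Ccnd1 was dim, and the standard error of its differences, 0.45, was above those of Ccnd2 (0.24) and Ccnd3 (0.17). Its level was -2.03 and -1.99 on the unstimulated arrays. After stimulation the 10 Ccnd1 values ran from -4.05 (anti-CD86 replicate 2) to -2.03 (anti-CD40+Pam2CSK4 replicate 1), and each lay below both unstimulated arrays, although the nearest rounds to the same value. Ccnd1 passed the test in none of the 5 comparisons with unstimulated cells, slide-blocked or not. Its log2 fold changes were -0.42 after Pam2CSK4, -1.32 after anti-CD86, -0.81 after anti-CD86+Pam2CSK4, -0.83 after anti-CD40 and -0.39 after anti-CD40+Pam2CSK4 (SE 0.45 each, limma adjusted p between 0.137 and 0.65). The anti-CD86 value for Ccnd1 was -0.59 without anti-CD86 replicate 2.

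The 2 kinases that D-type cyclins activate passed the test in no comparison with unstimulated cells. Cdk4 lay between 0.65 and 1.11 on all 12 arrays, with 0.82 and 0.80 on the unstimulated ones. Its log2 fold changes from unstimulated cells were between -0.06 and 0.19 (SE 0.15) and none passed. Slide-blocked, Cdk4 passed at 0.30 after Pam2CSK4 (adjusted p = 0.0335), 0.28 after anti-CD86 (adjusted p = 0.0208), 0.26 after anti-CD86+Pam2CSK4 (adjusted p = 0.0202) and 0.18 after anti-CD40+Pam2CSK4 (adjusted p = 0.0458). Under median scaling the Cdk4 differences were -0.0041 after Pam2CSK4 and -0.14 after anti-CD86+Pam2CSK4, on the other side of 0.

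Cdk6 had its highest values after anti-CD40+Pam2CSK4, at -0.60 and -0.36. They were -0.88 and -1.06 on the unstimulated arrays, and between -1.04 and -0.69 on the other 8. The Cdk6 log2 fold change for anti-CD40+Pam2CSK4 was 0.49 (SE 0.15, limma adjusted p = 0.0632), with a slide-blocked adjusted p of 0.00667. For anti-CD40 alone it was 0.19 (adjusted p = 0.405), and -0.37 under median scaling. The other Cdk6 probe was not well above background on enough arrays to be tested.

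**Figure D3:**
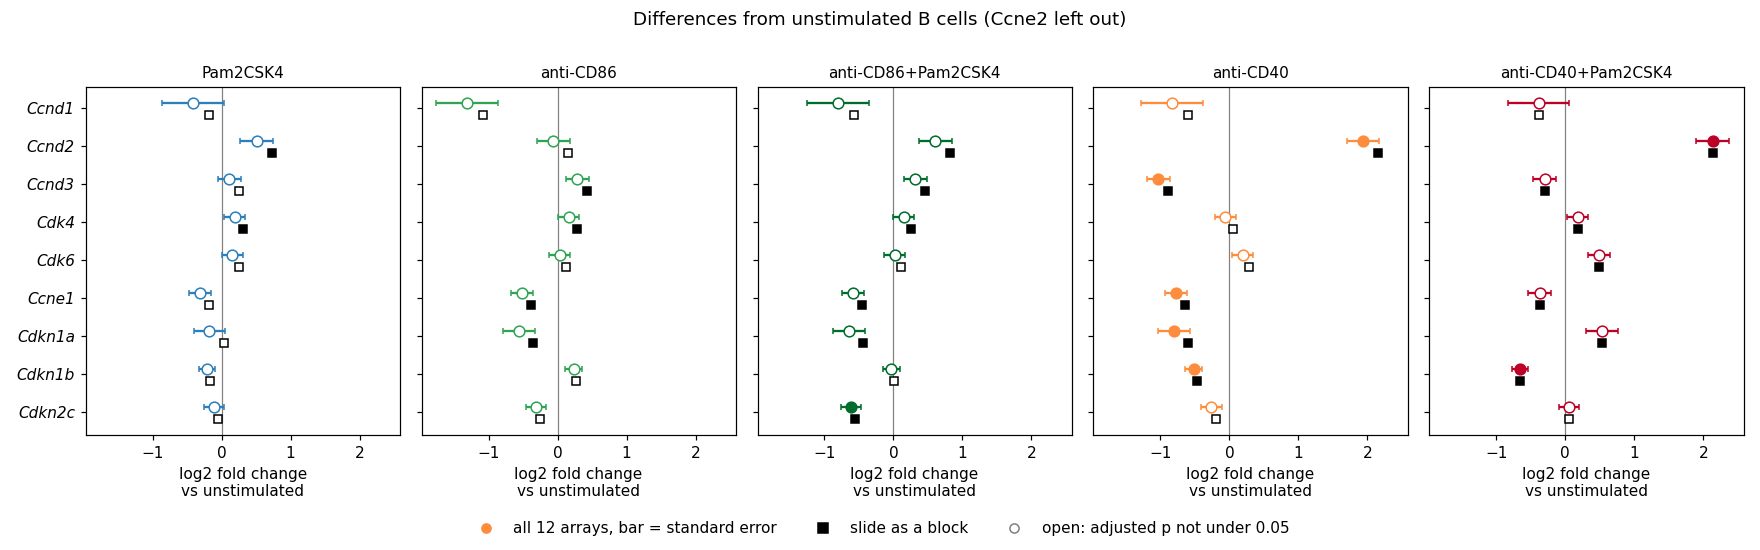
Log2 fold change from unstimulated cells (horizontal axis) for 9 genes and 5 stimulations; coloured circles with bars are limma estimates over all 12 arrays with their standard errors, black squares the slide-blocked estimates, and open symbols those with an adjusted p not under 0.05. Ccne2 is left out because its standard error was 1.5. Ccnd2 stands furthest to the right after anti-CD40 (1.93) and anti-CD40+Pam2CSK4 (2.14).

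Ccne1, an E-type cyclin, was highest in unstimulated cells. Its level was 2.76 and 2.73 there, and the 10 stimulated arrays all lay lower, from 1.80 (anti-CD40 replicate 2) to 2.56 (Pam2CSK4 replicate 1). After anti-CD40 the levels were 2.13 and 1.80, and the log2 fold change of Ccne1 was -0.78 (SE 0.16, limma adjusted p = 0.0191), 0.584-fold the unstimulated level (95% interval 0.451 to 0.757). It was -0.65 when slide-blocked (adjusted p = 0.000731) and -0.61 on slide 1 alone (adjusted p = 0.029). The Ccne1 call was lost without unstimulated replicate 1 (adjusted p = 0.114), unstimulated replicate 2 (adjusted p = 0.113) or anti-CD40 replicate 2 (-0.61, adjusted p = 0.0912), under median scaling (-1.34, adjusted p = 0.127), without the filter on dim probes (adjusted p = 0.083) and in a fit to the 4 arrays alone (adjusted p = 0.144).

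In the other comparisons with unstimulated cells Ccne1 missed the threshold. Its log2 fold changes were -0.31 after Pam2CSK4 (adjusted p = 0.375), -0.51 after anti-CD86 (adjusted p = 0.118), -0.58 after anti-CD86+Pam2CSK4 (adjusted p = 0.0563) and -0.37 after anti-CD40+Pam2CSK4 (adjusted p = 0.147). Slide-blocked, the last 3 of these passed, with adjusted p of 0.00754, 0.00317 and 0.00298. A second Ccne1 probe was far dimmer, at -2.71 to -1.73, and gave other values. They were 0.12 after Pam2CSK4, 0.04 after anti-CD86+Pam2CSK4 and 0.33 after anti-CD40+Pam2CSK4, opposite in sign to the brightest Ccne1 probe, and -0.51 after anti-CD40 (adjusted p = 0.0591).

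Ccne2 was near the lower end of the measured range apart from 1 spot. Its brightest probe read -2.22 and -2.91 on the unstimulated arrays. After Pam2CSK4 it read 2.76 on replicate 1 and -3.19 on replicate 2. The other 8 Ccne2 values ran from -3.41 to -2.31. The high spot was not flagged as an outlier by the scanner software, and the second Ccne2 probe read -3.92 on the same array and was not well above background there. With that spot in the fit the standard error of every Ccne2 log2 fold change from unstimulated cells was 1.5, and none passed. Without Pam2CSK4 replicate 2 the high spot stood alone for its group and Ccne2 was called after Pam2CSK4 at 5.33 (limma adjusted p = 0.00394), a call that assumes the lone array varied like the other groups. The differences of Ccne2 for anti-CD86 (-0.56, adjusted p = 0.849) and anti-CD86+Pam2CSK4 (-0.75, adjusted p = 0.772) changed sign when slide-blocked (0.23 and 0.04). The second Ccne2 probe was well above background on 1 of 2 unstimulated arrays, on both of anti-CD40+Pam2CSK4, and on none of anti-CD86 or anti-CD40.

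Among the inhibitors, Cdkn1b (p27) fell after anti-CD40 with and without Pam2CSK4. Its level was 2.11 and 2.20 on the unstimulated arrays, 1.75 and 1.51 after anti-CD40, and 1.44 and 1.54 after anti-CD40+Pam2CSK4. It was 2.01 and 1.87 after Pam2CSK4, 2.37 and 2.40 after anti-CD86, and 2.12 and 2.12 after anti-CD86+Pam2CSK4. The 4 arrays with anti-CD40 were again the 4 lowest. The Cdkn1b log2 fold change was -0.52 after anti-CD40 (SE 0.12, limma adjusted p = 0.0252) and -0.66 after anti-CD40+Pam2CSK4 (SE 0.12, adjusted p = 0.00775). The slide-blocked adjusted p was 0.00667 and 0.00105, and on slide 1 alone the anti-CD40 value was -0.40 (adjusted p = 0.0543).

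The Cdkn1b calls were open to single arrays. For anti-CD40 the call was lost without unstimulated replicate 1 (adjusted p = 0.114) or 2 (adjusted p = 0.161), without anti-CD40 replicate 2 (-0.40, adjusted p = 0.11), and without anti-CD40+Pam2CSK4 replicate 1 or 2 (adjusted p = 0.0503 each). For anti-CD40+Pam2CSK4 the Cdkn1b call was lost without anti-CD40+Pam2CSK4 replicate 1 (-0.61, adjusted p = 0.0658) or unstimulated replicate 2 (-0.61, adjusted p = 0.0728). Both were lost under median scaling (adjusted p = 0.158 and 0.726) and without the filter on dim probes (adjusted p = 0.122 and 0.0519). The second Cdkn1b probe, whose sequence is given above, also fell after anti-CD40, at -0.68 (adjusted p = 0.0233). After anti-CD40+Pam2CSK4 it gave -0.28 (adjusted p = 0.232; slide-blocked adjusted p = 0.0153). The remaining Cdkn1b probe was well above background on both arrays only of anti-CD86 and of anti-CD86+Pam2CSK4. It passed the filter on dim probes through those groups alone, so a higher value there carries no weight. Its log2 fold changes from unstimulated cells were 0.60 and 0.785 (SE 0.48 each, limma adjusted p = 0.504 and 0.307). For anti-CD86 the brightest probe gave 0.23 (adjusted p = 0.287) and the second 0.27 (adjusted p = 0.334). The second Cdkn1b probe passed when slide-blocked, at 0.38 after anti-CD86 (adjusted p = 0.0117) and 0.49 after anti-CD86+Pam2CSK4 (adjusted p = 0.00403). For Pam2CSK4 the brightest Cdkn1b probe gave -0.21 (adjusted p = 0.406).

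For Ccnd3 and Cdkn1b, 2 of the 4 genes that were lower after anti-CD40, the 250 bases before an annotated start are shown from RefSeq (GRCm38.p6), both on the plus strand. RefSeq promoter windows were found for 7 of the 10 genes, 10 windows in all, and Ccnd1, Ccnd2 and Ccne2 had no entry. Motifs were searched on both strands and chosen after the values were known; matches are in capitals. They were the forkhead core TGTTTAC, the GC box GGGCGG, the E-box CACGTG, the AP-1 site TGACTCA, the cAMP response element TGACGTCA, the STAT site TTCNNNGAA and the E2F site TTTGGCGC, and no matches overlapped in these windows.
Ccnd3, chr17:47504801-47505050: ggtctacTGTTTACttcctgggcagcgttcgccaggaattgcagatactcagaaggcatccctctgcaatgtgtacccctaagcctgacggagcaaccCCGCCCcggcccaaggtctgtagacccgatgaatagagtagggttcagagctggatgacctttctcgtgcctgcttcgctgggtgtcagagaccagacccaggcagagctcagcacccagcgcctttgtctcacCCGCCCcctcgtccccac
Cdkn1b, chr6:134920151-134920400: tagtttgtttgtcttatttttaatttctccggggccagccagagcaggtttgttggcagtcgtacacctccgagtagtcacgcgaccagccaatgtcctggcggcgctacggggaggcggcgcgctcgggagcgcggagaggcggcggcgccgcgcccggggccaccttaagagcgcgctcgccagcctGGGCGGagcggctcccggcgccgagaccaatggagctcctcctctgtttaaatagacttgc
Ccnd3 had 2 windows. The forkhead core was in 1 of the 10 windows, the one printed for Ccnd3, and in 3.17% of all 32851 promoter windows of this length. The other Ccnd3 window, chr17:47593217-47593466, held 1 GC box and none of the other motifs. The GC box was in 7 of 10 and in 32.7% of all windows. The E-box was in 2 of 10, those of Cdk4 and Cdk6, and in 6.02% of all. The AP-1, cAMP response, STAT and E2F letters were in 0 of 10, against 4.46%, 1.55%, 7.02% and 0.417% of all windows.

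Cdkn1a (p21), a target of p53, differed between anti-CD40 alone and anti-CD40+Pam2CSK4. Its level was 1.07 and 1.09 on the unstimulated arrays, 0.56 and -0.01 after anti-CD40, and 1.59 and 1.64 after anti-CD40+Pam2CSK4. It was 1.11 and 0.70 after Pam2CSK4, 0.67 and 0.37 after anti-CD86, and 0.64 and 0.23 after anti-CD86+Pam2CSK4. The 2 arrays of anti-CD40+Pam2CSK4 were the highest of the 12. Cdkn1a was 2.53-fold higher after anti-CD40+Pam2CSK4 than after anti-CD40, a log2 fold change of 1.34 (SE 0.23, limma adjusted p = 0.0237), and 1.13 when slide-blocked (adjusted p = 0.000439). On slide 1 alone it was 1.05 (adjusted p = 0.0352). This call was lost without anti-CD40+Pam2CSK4 replicate 1 (adjusted p = 0.131) or 2 (adjusted p = 0.153), without unstimulated replicate 1 or 2 (adjusted p = 0.0564 each), without anti-CD40 replicate 2 (1.05, adjusted p = 0.0986), under median scaling (1.79, adjusted p = 0.0557), without the filter on dim probes (adjusted p = 0.0854) and in a fit to the 4 arrays alone (adjusted p = 0.215).

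Against unstimulated cells Cdkn1a was lower after anti-CD40, at -0.80 on the log2 scale (SE 0.23, limma adjusted p = 0.0497), or -0.60 when slide-blocked (adjusted p = 0.00164). That adjusted p lay next to the threshold. Leaving out any 1 of 9 arrays put it above 0.05, the highest being 0.239 without anti-CD40 replicate 2, where the Cdkn1a difference was -0.52; the arrays that did not were anti-CD40 replicate 1 and both of anti-CD86+Pam2CSK4. The authors' deposited value table gave 0.0507 and median scaling 0.128, and without the filter on dim probes it was 0.148. After anti-CD40+Pam2CSK4 the Cdkn1a difference from unstimulated cells was 0.53 (adjusted p = 0.149; slide-blocked adjusted p = 0.00133). After anti-CD86 it was -0.56 (adjusted p = 0.198) and after anti-CD86+Pam2CSK4 -0.65 (adjusted p = 0.106), and slide-blocked these were -0.35 (adjusted p = 0.0163) and -0.44 (adjusted p = 0.00612).

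Cdkn2c (p18) was lowest after anti-CD86+Pam2CSK4. Its level was 0.19 and 0.16 on the unstimulated arrays and -0.21 and -0.66 after anti-CD86+Pam2CSK4. It was 0.11 and 0.02 after Pam2CSK4, -0.18 and -0.10 after anti-CD86, -0.07 and -0.10 after anti-CD40, and 0.21 and 0.25 after anti-CD40+Pam2CSK4. The 2 arrays of anti-CD86+Pam2CSK4 were the lowest of the 12, although they differed from each other by more than those of any other group for this gene. The Cdkn2c log2 fold change from unstimulated cells was -0.61 (SE 0.15, limma adjusted p = 0.0408), -0.55 when slide-blocked (adjusted p = 0.017), and -0.39 on slide 1 alone (adjusted p = 0.0428). It was lost on leaving out any 1 of 9 arrays, with adjusted p up to 0.199 without unstimulated replicate 1 and a difference of -0.39 (adjusted p = 0.158) without anti-CD86+Pam2CSK4 replicate 2. The arrays whose removal kept the Cdkn2c call were anti-CD86+Pam2CSK4 replicate 1 and both of anti-CD40. Median scaling (adjusted p = 0.543), no filter on dim probes (adjusted p = 0.173) and a fit to the 4 arrays alone (adjusted p = 0.148) also ended it. In the other 4 comparisons with unstimulated cells Cdkn2c differed by between -0.31 and 0.05, and none passed, slide-blocked or not.

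Counted over the 10 genes, anti-CD40 called the most. It called 5 genes, with Ccnd2 higher and Ccnd3, Ccne1, Cdkn1a and Cdkn1b lower, where 16.8% of all probes were called (6.09% higher and 10.7% lower). Anti-CD40+Pam2CSK4 called 2, Ccnd2 higher and Cdkn1b lower, against 18.1% of all probes (8.46% higher and 9.65% lower). Anti-CD86+Pam2CSK4 called 1, Cdkn2c, against 10.7% of all probes (7.28% lower), a share close to 1 in 10. Anti-CD86 called 0 by limma, against 2.07%, and 3 had an unadjusted p under 0.05, against 23.1% of probes. Pam2CSK4 called 0 by limma, against 0.133%, and 0 had an unadjusted p under 0.05, against 15.6%. The F test over the 6 groups called 4 of 10 (Ccnd2, Ccnd3, Cdkn1b and Cdkn1a), against 20.1% of probes, and the methods' one way test called 3 after adjustment, against 18.1%. The 5 comparisons share the same 2 unstimulated arrays. The median log2 fold change over the 10 genes was -0.39 after anti-CD40, 0.06 after anti-CD40+Pam2CSK4, -0.31 after anti-CD86+Pam2CSK4, -0.19 after anti-CD86 and 0.0007 after Pam2CSK4, beside medians over all probes between -0.07 and 0.01.

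Arrays of a stimulated group that did not overlap the unstimulated ones were common among all probes, so a lack of overlap alone says little. After Pam2CSK4 it was found for 2 of the 10 genes on the higher side and 4 on the lower, against 20% and 37.3% of probes. After anti-CD86 it was 3 and 5, against 25.3% and 36.8%. After anti-CD86+Pam2CSK4 it was 3 and 5, against 27.5% and 36.7%. After anti-CD40 it was 2 and 6, against 26.4% and 35.8%. After anti-CD40+Pam2CSK4 it was 5 and 4, against 38.4% and 37.6%.

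Slide-blocked, more was called among these genes and among all probes. Pam2CSK4 then called 2 of the 10 genes, against 10.9% of probes. Anti-CD86 called 4, against 28.5%. Anti-CD86+Pam2CSK4 called 6, against 35.1%, and anti-CD40 called 5, against 37.4%. Anti-CD40+Pam2CSK4 called 7, against 47.5%. No unstimulated array lay on slide 2, so the block rests on the groups that spanned both slides. Scaling to the array median shifted the median of all tested probes from -0.02 to -0.58 for anti-CD40 against unstimulated cells, from -0.03 to -0.32 for anti-CD86+Pam2CSK4, from -0.07 to -0.26 for Pam2CSK4, from -0.05 to -0.19 for anti-CD86, and from 0.01 to -0.10 for anti-CD40+Pam2CSK4. After anti-CD40 under that scaling, Ccnd2 (1.37) lay above and Ccnd3 (-1.59) below the shifted median. Fits to the 4 arrays of a comparison alone called 0 of the 10 genes after anti-CD40 and after anti-CD86+Pam2CSK4, where they called 0 of all 31599 probes by limma (25% and 28.9% of probes had an unadjusted p under 0.05). They called 5 of the 10 after anti-CD40+Pam2CSK4, against 40.3% of probes.

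The study's own question, whether TLR-2 and CD86 act together, was put to these genes in 3 comparisons. Anti-CD86+Pam2CSK4 against Pam2CSK4 called 0 of 10 by limma, against 0.0633% of probes, and 1 had an unadjusted p under 0.05, against 10.3%. Against anti-CD86 it called 0, against 0.225%, again with 1 under 0.05, against 8.85%. Slide-blocked, the first comparison called 3 of 10, against 11.1% of probes, all lower: Cdkn1a at -0.47 (adjusted p = 0.0158), Ccne1 at -0.27 (adjusted p = 0.038) and Cdkn2c at -0.50 (adjusted p = 0.0461). The second then called Ccnd2 alone, against 7.78%. The CD86 by TLR2 interaction, which asks whether the combination departs from the sum of the 2 single effects, called 0 of 10 by limma, slide-blocked or not, against 0.019% and 0.228% of probes, and 0 had an unadjusted p under 0.05, against 4.26%.

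For CD40 and TLR-2 the interaction called 0 of 10 by limma, against 1.15% of probes, and 3 had an unadjusted p under 0.05, against 19.2%. These were Cdkn1a at 1.51 (SE 0.33, adjusted p = 0.0859), Ccne1 at 0.71 (SE 0.23, adjusted p = 0.181) and Ccnd3 at 0.62 (SE 0.24, adjusted p = 0.229). Ccnd2 was at -0.31 (SE 0.34, adjusted p = 0.559). Slide-blocked, 3 passed, against 8.55% of probes: Cdkn1a at 1.09 (adjusted p = 0.00501), Ccne1 at 0.45 (adjusted p = 0.0386) and Ccnd2 at -0.74 (adjusted p = 0.0109). Under median scaling the Ccnd2 interaction was 0.34, while the median of this interaction over all probes moved from 0.16 to 0.81, so Ccnd2 lay below that median under both scalings. The slide-blocked Ccnd2 value means that the log2 changes of the 2 single stimulations, 0.73 and 2.15, added up to more than the 2.14 measured for both.

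Set against Pam2CSK4 alone, anti-CD40+Pam2CSK4 called 1 of 10, against 9.81% of probes (6.57% higher). This was Ccnd2, 3.09-fold higher, with a log2 fold change of 1.63 (SE 0.24, limma adjusted p = 0.00596), 1.41 when slide-blocked (adjusted p = 7.74e-05). The call was lost without anti-CD40+Pam2CSK4 replicate 2 (adjusted p = 0.0524) and under median scaling (1.71, adjusted p = 0.0963). Slide-blocked, 4 passed, against 31.6% of probes, with Cdkn1b at -0.49 (adjusted p = 0.00734), Ccnd3 at -0.54 (adjusted p = 0.00242) and Cdkn1a at 0.50 (adjusted p = 0.00384) beside Ccnd2. Against anti-CD40 alone it called 1 of 10, Cdkn1a, against 2.89% of probes (1.3% higher), and slide-blocked 3, against 15.3%. Ccnd3 was higher in that comparison by 0.73 (adjusted p = 0.0667; slide-blocked adjusted p = 0.00447), Ccne1 by 0.40 (adjusted p = 0.236; slide-blocked adjusted p = 0.036), and the brightest Ccnd2 probe by 0.20.

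The 2 combined stimulations, which share Pam2CSK4 and differ in the antibody, differed in 4 of 10 genes, against 12.2% of probes (7.38% higher and 4.8% lower). Relative to anti-CD86+Pam2CSK4, anti-CD40+Pam2CSK4 had Ccnd2 higher by 1.53 (SE 0.24, limma adjusted p = 0.00663), Cdkn1a higher by 1.18 (SE 0.23, adjusted p = 0.0157), Cdkn2c higher by 0.67 (SE 0.15, adjusted p = 0.0253) and Cdkn1b lower, at -0.63 (SE 0.12, adjusted p = 0.0134). Slide-blocked, these were 1.31, 0.97, 0.61 and -0.67 and 6 of 10 passed, against 34.6% of probes, since Ccnd3 (-0.75, adjusted p = 0.000633) and Cdk6 (0.38, adjusted p = 0.0302) passed as well. The Ccnd2 call was lost without anti-CD40+Pam2CSK4 replicate 1 (adjusted p = 0.0502) or 2 (adjusted p = 0.0545). The Cdkn1a call was lost without either of those (adjusted p = 0.0865 and 0.0987) or anti-CD86+Pam2CSK4 replicate 2 (0.98, adjusted p = 0.0929). The Cdkn1b call was lost without any of the 4 arrays compared (adjusted p 0.0518 to 0.104), and the Cdkn2c call without either anti-CD40+Pam2CSK4 array (adjusted p = 0.121 and 0.141), either unstimulated array (0.0543 each) or anti-CD86+Pam2CSK4 replicate 2 (0.44, adjusted p = 0.0957). All 4 were lost under median scaling, with Ccnd2 at an adjusted p of 0.0839, and in a fit to the 4 arrays alone, with Ccnd2 at 0.0556.

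Other genes of the G1 to S transition, outside the set, fell or did not pass without the slide block, with 1 exception. The list held 30 such genes, of which 28 were tested; Cdkn2a and Skp2 were too dim. After anti-CD40, 0 were higher and 7 lower, with a median log2 fold change of -0.30 over the list and -0.02 over all probes. After anti-CD40+Pam2CSK4, 1 was higher and 8 lower (median -0.22, all probes 0.01). The higher one, looked up after its value was seen, was Cdc25a, a phosphatase that activates cyclin-dependent kinases, at 0.58 (limma adjusted p = 0.0349). After anti-CD86+Pam2CSK4, 0 were higher and 5 lower (median -0.40, all probes -0.03), after anti-CD86 0 and 1 (median -0.21, all probes -0.05), and after Pam2CSK4 none passed (median -0.20, all probes -0.07). Of 16 genes of S phase and mitosis, 1 rose and 7 fell after anti-CD40 (median -0.52), 1 rose and 3 fell after anti-CD40+Pam2CSK4 (median -0.34), 0 rose and 6 fell after anti-CD86+Pam2CSK4 (median -0.51), 1 fell after anti-CD86 (median -0.28) and none passed after Pam2CSK4 (median -0.23). Slide-blocked, the G1 to S list had 2 higher and 13 lower after anti-CD40, 5 and 13 after anti-CD40+Pam2CSK4, 1 and 14 after anti-CD86+Pam2CSK4, 2 and 9 after anti-CD86, and 0 and 3 after Pam2CSK4. The list of S phase and mitosis then had 1 higher and 12 lower, 1 and 8, 0 and 9, 0 and 7, and 0 and 1, in the same order. Without the block the shares of all probes called are those given above, with 3.38% higher after anti-CD86+Pam2CSK4. They were 0.934% higher and 1.14% lower after anti-CD86, and 0.0981% and 0.0348% after Pam2CSK4. Slide-blocked, 15.6% of all probes were higher and 21.7% lower after anti-CD40, and 23.7% and 23.8% after anti-CD40+Pam2CSK4. These shares were 14.6% and 20.5% after anti-CD86+Pam2CSK4, 13% and 15.4% after anti-CD86, and 4.76% and 6.15% after Pam2CSK4.

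Named by size of change, Ccng2, a cyclin of arrested cells, went from 5.39 ± 0.05 (SD, n = 2) in unstimulated cells to 4.32 ± 0.29 after anti-CD40 (log2 fold change -1.07, limma adjusted p = 0.0104) and 4.34 ± 0.07 after anti-CD40+Pam2CSK4 (-1.05, adjusted p = 0.00691). Cdkn2d (p19), an inhibitor of Cdk4 and Cdk6 like Cdkn2c, fell by 0.97 after anti-CD40 (adjusted p = 0.0148) and by 0.87 after anti-CD40+Pam2CSK4 (adjusted p = 0.0164). Rbl2 (p130), the pocket protein of resting cells, fell by 0.72 after anti-CD40+Pam2CSK4 (adjusted p = 0.0329). E2f8, a repressing E2F, fell by 1.04 after anti-CD86+Pam2CSK4 (adjusted p = 0.0058), by 0.67 after anti-CD40 (adjusted p = 0.00677) and by 0.54 after anti-CD86 (adjusted p = 0.0445).

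Among genes of later phases, Birc5 (survivin), an inhibitor of apoptosis that also acts in mitosis, rose by 0.88 after anti-CD40 (limma adjusted p = 0.00449) and by 1.01 after anti-CD40+Pam2CSK4 (adjusted p = 0.00132). Aurkb, the mitotic kinase it works with, fell by 1.25 (adjusted p = 0.00669) and by 1.56 (adjusted p = 0.00159). Tyms, which makes thymidylate for DNA synthesis, fell by 1.03 after anti-CD86+Pam2CSK4 (adjusted p = 0.0111), by 0.76 after anti-CD40 (adjusted p = 0.0142), by 0.76 after anti-CD40+Pam2CSK4 (adjusted p = 0.0096) and by 0.78 after anti-CD86 (adjusted p = 0.0445). After anti-CD86+Pam2CSK4, Ccna2 (-0.97), Rrm2 (-0.76), Cdc2a, the mitotic kinase Cdk1 (-0.74), and Ccnb1 (-0.73) fell too, with adjusted p of 0.0163, 0.0283, 0.0476 and 0.0213. Each difference named for these lists kept its direction and passed when slide-blocked.

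**Figure D4:**
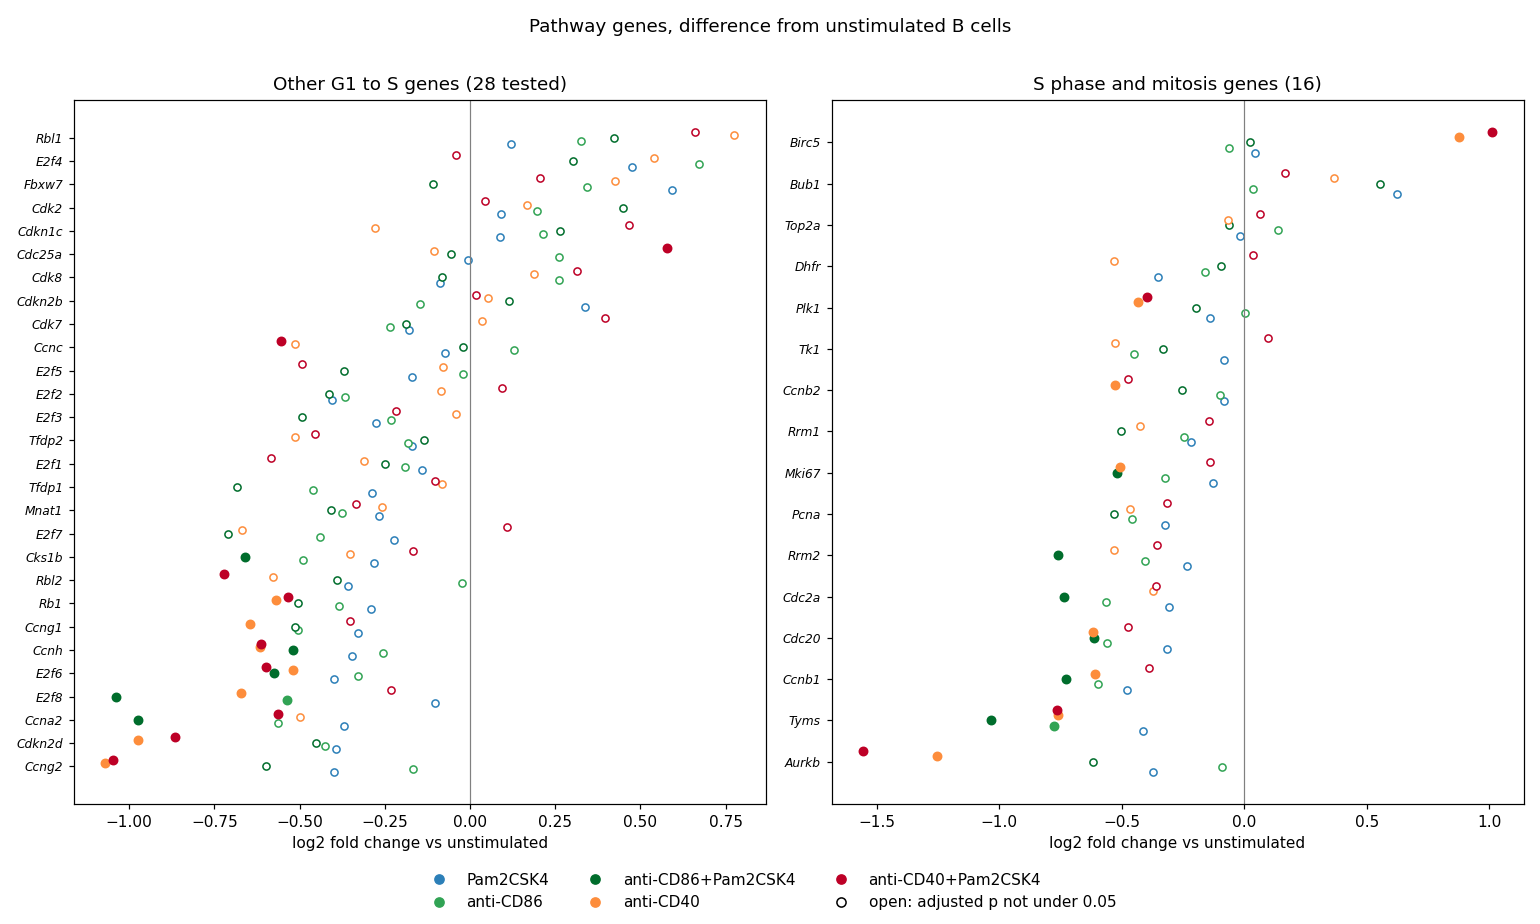
Log2 fold change from unstimulated cells (horizontal axis) for the tested genes of the G1 to S list (28, left) and of the S phase and mitosis list (16, right), coloured by stimulation; filled points have an adjusted p under 0.05. Most filled points lie left of 0, and Birc5 stands furthest right at 1.01 while Aurkb stands furthest left at -1.56.

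Markers of other cells also differed between the stimulations. Summed over the 7 T cell markers, the level (as a multiple of the 75th percentile intensity) was 33.9 to 34.6 in unstimulated cells and 22.5 to 32.1 over the 10 stimulated arrays, and none of the 7 was at 0. Without the slide block, 1 of the 7 was called lower after anti-CD86+Pam2CSK4 and none in the other comparisons with unstimulated cells. The sum of 4 NK cell markers was 6.70 to 6.88 in unstimulated cells and 4.42 to 5.86 in stimulated ones. Of these 4, 2 were called lower after anti-CD40, among them Klrb1c (-0.48, limma adjusted p = 0.0434). After anti-CD86+Pam2CSK4 2 were lower and after anti-CD40+Pam2CSK4 1, and none was called after anti-CD86 or Pam2CSK4. The sum of the 6 unsaturated myeloid markers was 168.5 and 169 on the unstimulated arrays, 104.6 to 117.7 after anti-CD40, 131.5 to 133.8 after anti-CD40+Pam2CSK4 and 121.8 to 146.9 on the other 6 arrays. Of the 7 myeloid markers 0 were higher in any comparison with unstimulated cells, and 1 was lower after anti-CD40, 3 after anti-CD40+Pam2CSK4, 3 after anti-CD86+Pam2CSK4 and 1 after anti-CD86. The sum of 3 red cell markers was 85.4 to 85.7 in unstimulated cells, 69.5 to 92.4 after anti-CD40 and 103 to 104 after anti-CD40+Pam2CSK4. The sum of 3 plasma cell markers was 11.1 to 11.2 in unstimulated cells, 31.1 to 32.2 after anti-CD40 and 36.9 to 39.4 after anti-CD40+Pam2CSK4. It was 19 to 19.75 after Pam2CSK4, 19.64 to 19.78 after anti-CD86+Pam2CSK4 and 12.45 to 12.66 after anti-CD86. The median log2 fold change of the 3 markers was -0.03 after Pam2CSK4 and -0.12 after anti-CD86+Pam2CSK4, with 1 called higher in each. Slide-blocked, 1 was also called lower after anti-CD86+Pam2CSK4. For anti-CD86 the median was 0.16 and 0 were called without the block. For anti-CD40 and anti-CD40+Pam2CSK4 the rise of the sum was in Irf4, which activated B cells also express. Irf4 was at 1.98 (limma adjusted p = 0.000183) and 2.26 (adjusted p = 1.81e-05), while Sdc1 fell by 1.02 and by 0.96. The part of other cell types in the results on cyclins and inhibitors was not tested.

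Likeness to a gene's brightest probe was taken over any probe of other genes well above background on all 12 arrays. Closest to Ccnd2 were Inf2 (listed on the array as 2610204M08Rik, Pearson correlation 0.996), Marcksl1 (0.993) and Fnbp1 (0.991). Those closest to Ccnd3 were Il10ra (0.992), Mavs (0.981) and Nr1d1 (0.979). For Cdkn1b they were Armh2 (listed as 1700016G14Rik, 0.981), Rreb1 (0.979) and Arsk (0.974), passing over probes whose names RefSeq did not match to a gene. The 12 arrays share 6 stimulations and 2 slides, so these values describe likeness only.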

How the data were processed

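Processed Cy3 intensities were deposited for 12 one-colour Agilent arrays (custom mouse design, annotated to mm9) as Feature Extraction 10.5.1.1 wrote them, background-subtracted and detrended within the array. A value table that the authors deposited held log2 intensities less a constant per array near the 75th percentile, and it served only as an alternative. Groups came from the sample labels. Spots of a probe were averaged, log2 was taken and the 75th percentile of the array subtracted. Outlier spots were dropped; 68 probes without a value on some array were left out. A probe was tested if the scanner software set it well above background on both arrays of any 1 group (31599 of 61307) with limma 3.58.1 in R 4.3.3 over all 12 arrays (6 residual degrees of freedom), Benjamini-Hochberg adjusted p under 0.05. No fold was required. The script was tested on simulated data. Tables were made with Python and pandas. The number of arrays limits the precision. All 10 genes are named, with differences given where called or where arrays did not overlap; up to 6 pathway genes per comparison were named by largest change among those called. The members and lists were chosen with earlier results of these data known. Replicate numbers were not used as pairs. Correlations of deviations between groups ran from -0.138 to 0.806. They were highest among the groups that spanned both slides, where replicate number and slide cannot be told apart. Alternatives covered scaling, background correction (normexp, offset 50), the dim-probe filter, probe choice, the deposited value table, slide, replicate number, samples in the fit, the methods' one way test and each array left out. One item of the marker lists is not reported here.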

Additional observations from a re-analysis of the deposited data

How the results depend on the processing

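The limits are 2 arrays per group, 12 in all, control arrays shared by 5 comparisons, and a slide that no unstimulated array shares with the later replicates. Of 72 differences named for single genes, the authors' deposited value table kept the direction and the call of 71, and normexp correction and quantile normalization kept the direction of all 72. Most of the 72 were not called as reported. Against unstimulated cells the calls were 1 for anti-CD86+Pam2CSK4, 5 for anti-CD40 and 2 for anti-CD40+Pam2CSK4. Anti-CD40+Pam2CSK4 had 1 against Pam2CSK4, 1 against anti-CD40 and 4 against anti-CD86+Pam2CSK4. Of these calls median scaling lost 13 and kept only Ccnd2 after anti-CD40+Pam2CSK4. It also reversed 5 differences that were not called. Between 46.6% and 50.6% of probes were well above background on an array of slide 1, so the array median there lay near that limit. For slide 2 the range was 48.7% to 60.6%, and the median intensities of the 2 slides differed as given above. Fits to the compared groups alone lost 11 of these calls, and testing without the filter on dim probes lost 9. Leaving out anti-CD40+Pam2CSK4 replicate 1 or 2 lost calls as well. The slide block reversed 2 and brought 30 more past the threshold. The cause was not tested.

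Genes called of 10 are given by setting where the count moved most relative to the reported one, which is in brackets. Smaller relative moves are left out, such as the slide-blocked 6 for anti-CD40+Pam2CSK4 against anti-CD86+Pam2CSK4 (4). Median scaling gave 0 for anti-CD86+Pam2CSK4 against unstimulated cells (1), 0 for anti-CD40 (5), 1 for anti-CD40+Pam2CSK4 (2), 0 for the latter against Pam2CSK4 (1), 0 against anti-CD40 (1), 0 against anti-CD86+Pam2CSK4 (4), and 1 for the F test (4). No filter on dim probes, which adjusts over more probes, gave 0 for anti-CD86+Pam2CSK4 (1), 2 for anti-CD40 (5), 1 for anti-CD40+Pam2CSK4 (2), 0 for the latter against anti-CD40 (1), 1 against anti-CD86+Pam2CSK4 (4), and 2 for the F test (4). Requiring all 12 arrays well above background gave 2 for anti-CD86+Pam2CSK4 (1) and 2 for anti-CD40+Pam2CSK4 against Pam2CSK4 (1). The shares of probes called were 16.7% and 12.8%. Fits to the compared groups alone, with fewer arrays, gave 0 for anti-CD86+Pam2CSK4 (1), 0 for anti-CD40 (5), 5 for anti-CD40+Pam2CSK4 (2), 0 for the latter against anti-CD40 (1) and 0 against anti-CD86+Pam2CSK4 (4). In the last 2 of these, 0.411% and 1.2% of all probes were called.

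Quantile normalization gave 4 for anti-CD86+Pam2CSK4 (1), and for anti-CD40+Pam2CSK4 3 against Pam2CSK4 (1) and 2 against anti-CD40 (1). Normexp gave 2 for anti-CD86+Pam2CSK4 (1), 4 for anti-CD40+Pam2CSK4 against Pam2CSK4 (1), 2 against anti-CD40 (1) and 1 for the CD40 by TLR2 interaction (0). For that interaction 1.08% of all probes were called. The next brightest probe gave 1 for anti-CD86 (0), 2 for anti-CD86+Pam2CSK4 (1), 1 for anti-CD40+Pam2CSK4 (2) and 2 for the latter against anti-CD40 (1). The call for anti-CD86 was the second Ccne2 probe (-1.17, limma adjusted p = 0.0427). That probe was well above background on 0 of the 2 anti-CD86 arrays and on 1 of the 2 unstimulated ones. It passed the filter on dim probes through anti-CD40+Pam2CSK4 alone, so this call carries no weight. The slide block gave 2 for Pam2CSK4 (0), 4 for anti-CD86 (0), 6 for anti-CD86+Pam2CSK4 (1), 7 for anti-CD40+Pam2CSK4 (2), 3 for anti-CD86+Pam2CSK4 against Pam2CSK4 (0), 1 against anti-CD86 (0), 4 for anti-CD40+Pam2CSK4 against Pam2CSK4 (1), 3 against anti-CD40 (1), 3 for the CD40 by TLR2 interaction (0) and 8 for the F test (4). Slide 1 alone gave 5 for anti-CD86+Pam2CSK4 (1), 5 for anti-CD40+Pam2CSK4 (2), 5 for the latter against Pam2CSK4 (1) and 7 for the F test (4), against 19.8%, 40.3%, 15.7% and 33.3% of probes.

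The share of all probes called moved too. For the F test it was 20.1% as reported, 3.23% under median scaling, 2.5% without the filter and 60% with the slide block. For anti-CD40+Pam2CSK4 against Pam2CSK4, anti-CD40 and anti-CD86+Pam2CSK4 it was 9.81%, 2.89% and 12.2% as reported. Median scaling gave 0.75%, 1.09% and 0.867%. Without the filter the last 2 were 0.575% and 1.97%. After quantile normalization the first 2 were 12.5% and 3.9%, and with normexp 11.4% and 2.66%. For anti-CD86+Pam2CSK4, anti-CD40 and anti-CD40+Pam2CSK4 against unstimulated cells it was 10.7%, 16.8% and 18.1% as reported, 0.418%, 1.1% and 1.47% under median scaling, 0.0425%, 1.81% and 4.02% without the filter, 16.7%, 22.7% and 22.6% with all 12 arrays required, 12.6%, 20.3% and 20.2% after quantile normalization, 13.7%, 19.1% and 19.9% with normexp, and 24.8%, 30.2% and 27.2% with the replicate block.

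Whether the replicate numbers pair the samples is not known. Deviations of same-numbered samples correlated at 0.648 to 0.806 among the 4 groups that spanned both slides, and at -0.138 to 0.142 otherwise. In those 4 groups replicate number and slide cannot be told apart, so these values cannot settle it. The replicate block gave 1 for anti-CD86 (0), 4 for anti-CD86+Pam2CSK4 (1), 4 for anti-CD40+Pam2CSK4 (2), 3 for the latter against Pam2CSK4 (1), 2 against anti-CD40 (1) and 2 for the CD40 by TLR2 interaction (0). Beside the shares given above, it called 12.8% of probes for anti-CD86. It called 17.1% for anti-CD40+Pam2CSK4 against Pam2CSK4, 6.6% against anti-CD40 and 4.49% for the interaction.

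Leaving out each array in turn left a lone array in its group, which is assumed to vary like the other groups. Counts of genes called in these fits are therefore not given. Of the calls reported, those of Ccnd2 after anti-CD40 and after anti-CD40+Pam2CSK4 against unstimulated cells held whichever array was left out. Every other call was lost without at least 1 array, as given with each gene above.

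Some single-gene differences changed sign. Under median scaling, which moved the median of all probes, these were Cdk4 after Pam2CSK4 (-0.0041) and after anti-CD86+Pam2CSK4 (-0.14), Cdk6 after anti-CD40 (-0.37), Cdkn2c after anti-CD40+Pam2CSK4 (-0.054) and the Ccnd2 CD40 by TLR2 interaction (0.34). With the next brightest probe they were Ccne1 after Pam2CSK4 (0.12), anti-CD86+Pam2CSK4 (0.037) and anti-CD40+Pam2CSK4 (0.33). For anti-CD86+Pam2CSK4 against anti-CD86, the next brightest probe changed the sign of Cdkn1b (0.10) and Ccne2 (0.43). The second Ccne2 probe was too dim in both of those groups to be told from background, so its change of sign carries no weight. With the slide block they were Ccne2 after anti-CD86 (0.23) and anti-CD86+Pam2CSK4 (0.039).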
